A study of Mus musculus with 6 samples.

Results

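A set of 8 genes of water, sodium and bicarbonate transport by kidney tubules was followed in cultured tubular cells after deletion of the ETS transcription factor gene Elf3. They were chosen by name as the rows with the symbols Aqp1, Aqp3, Slc4a4, Slc12a2, Atp1b1, Car2, Car12 and Scnn1a, so that they make up 8 of the 55487 rows of the deposited tables. The count filter kept 7 of the 8 among 13755 genes tested, and Aqp3 did not pass it. RNA had been extracted from primary mouse renal tubular epithelial cells and sequenced in bulk after mRNA enrichment. The 3 knockout libraries came from cells given an adenovirus with Cre recombinase (AdvCre) and labelled ELF3 knockout. The 3 control libraries came from cells given a control adenovirus and labelled wild type. Both groups had been exposed to TNFα and IFNγ and carried the label of batch 1, so no value here shows an effect of the cytokines. As the labels describe them, Cre and the loss of Elf3 came together in the knockout cells, so their effects cannot be told apart. The strain, age and sex of the mice, any allele carried by the control cells, the part of Elf3 that Cre removes and the doses and times of exposure are not given, nor is it stated whether replicates were separate cultures. P-values therefore measure the spread between these samples, which may be technical.

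The tubule moves water and salt through pairs of proteins on opposite faces of the cell. The Na,K-ATPase of the basolateral membrane pumps sodium out of the cell and so drives its entry through channels and cotransporters. Bicarbonate is recovered when carbonic anhydrases interconvert carbon dioxide and bicarbonate and the electrogenic sodium bicarbonate cotransporter carries it to the blood, while water follows through aquaporins.

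Estimated counts per library summed to between 8961779 and 10774195, so that a floor of 3 counts lay at 0.282 to 0.337 CPM by library, for counting error only. CPM here is a count divided by its library's size, adjusted with TMM factors. Elf3 averaged 3.10 ± 1.12 CPM in the knockout libraries and 22.0 ± 2.76 CPM in the controls (SD, n = 3 each). The 11 listed markers of tubular epithelium, among them Epcam, Cdh1, Krt8 and Krt18, were measured in all libraries and summed to between 8291 and 8629 TPM in the knockout and between 6826 and 7057 TPM in the controls. The proximal tubule transporter gene Slc22a6 and the collecting duct genes Aqp2 and Foxi1 had no count in any library.

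Of the 7 transport genes tested, 4 fell, 1 rose and 2 did not pass the test at an adjusted p under 0.05. Over all tested genes, 36.6% passed, with 18.3% higher and 18.3% lower in the knockout. The groups did not overlap for 5 of the 7, the same that passed, as for 46.7% of all tested genes. The median log2 fold change, knockout over control, was -0.55 over the 7 genes and -0.01 over all tested genes. Car2, a cytosolic carbonic anhydrase, fell 3.82-fold, and the bicarbonate cotransporter gene Slc4a4, the chloride-loading cotransporter gene Slc12a2 and the sodium pump subunit gene Atp1b1 fell by between 1.47-fold and 1.74-fold. Aqp1, the water channel of the proximal tubule and thin descending limb, rose 3.14-fold. Only 138 of the 13755 tested genes had a log2 fold change above that of Aqp1, and 98 had one below that of Car2. In bulk samples, fewer cells of a type and less RNA per cell cannot be told apart.

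**Figure D1:**
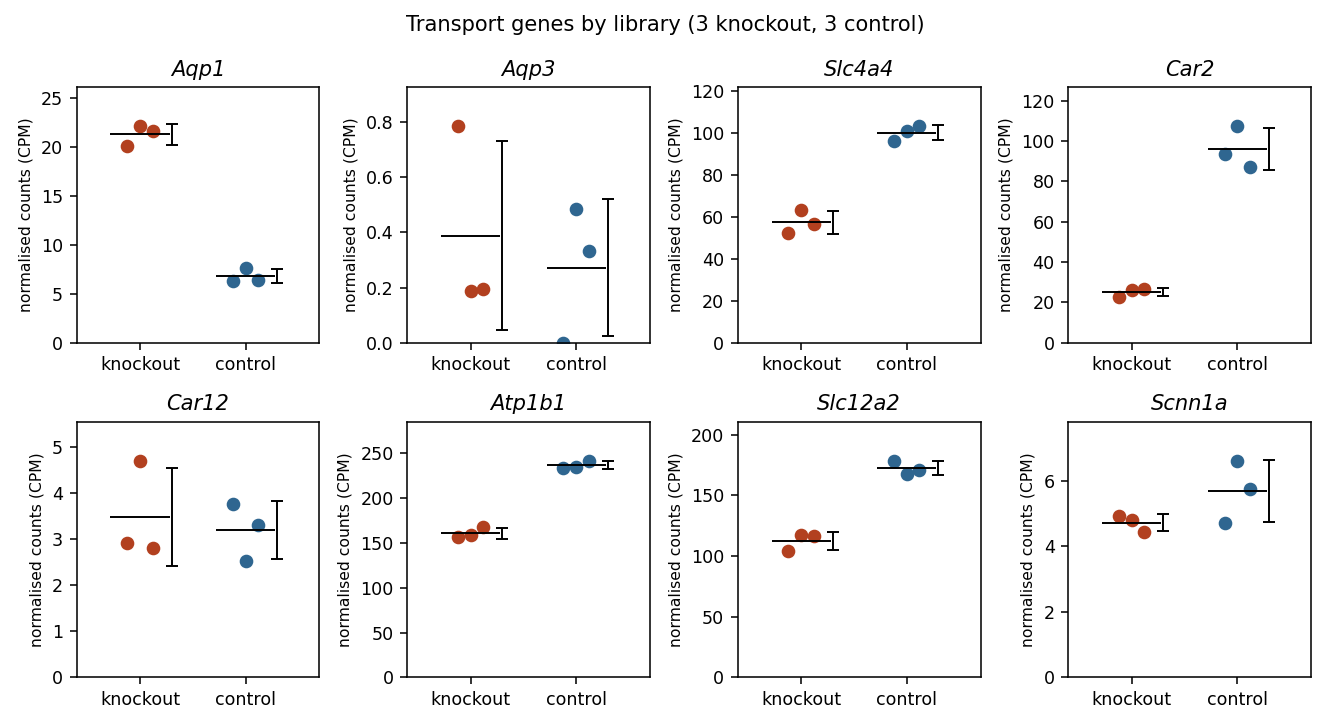
Normalised counts (CPM, from 0) of the 8 transport genes, with 1 point per library, a line at the mean and a bar of 1 SD, knockout (n = 3) on the left of each panel and control (n = 3) on the right. The groups do not overlap for Aqp1, Slc4a4, Car2, Atp1b1 and Slc12a2, and overlap for Aqp3, Car12 and Scnn1a.

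**Figure D2:**
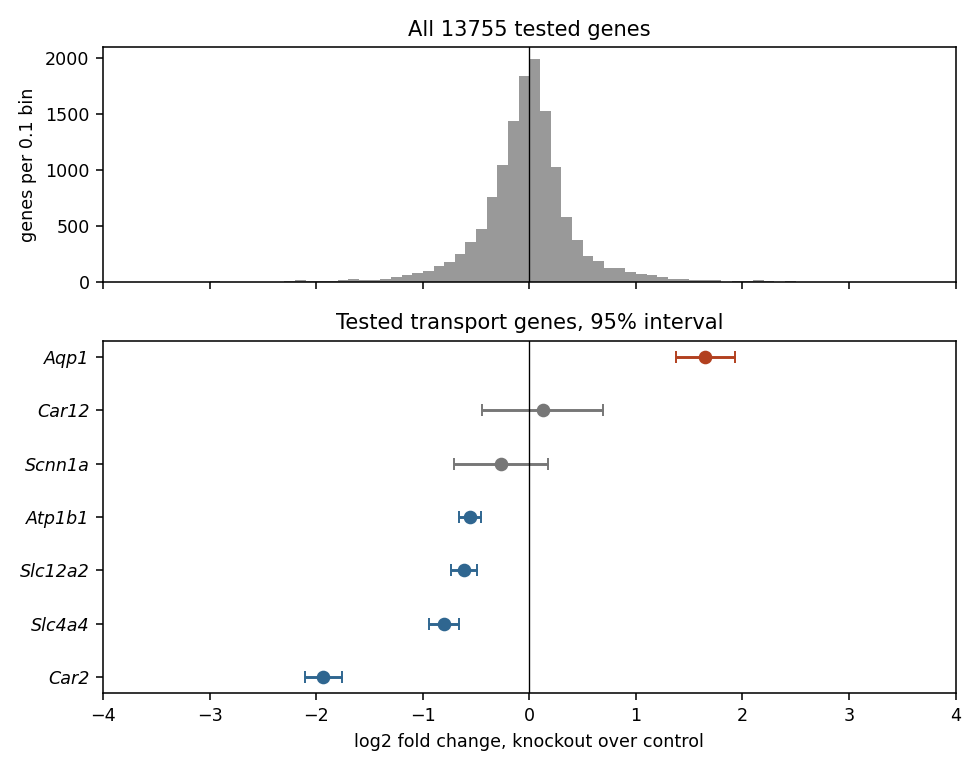
Upper panel: number of tested genes per 0.1 of log2 fold change, knockout over control, with values beyond the axis placed in the outermost bins. Lower panel: log2 fold change of the 7 tested transport genes with its 95% interval, in red for the rise, blue for the falls and grey for the genes that did not pass. Aqp1 and Car2 lie on opposite sides in the thin tails of the upper distribution.

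Levels between genes can be compared only per transcript length, in the authors' TPM, a count scaled for transcript length and depth. In the knockout libraries the order of mean TPM was Atp1b1 at 116.9 ± 5.16, Car2 at 35.0 ± 5.06, Slc12a2 at 29.7 ± 2.60, Aqp1 at 14.9 ± 1.04, Slc4a4 at 13.4 ± 1.68, Scnn1a at 2.51 ± 0.233, Car12 at 1.77 ± 0.541 and Aqp3 at 0.427 ± 0.367 (SD, n = 3 each). The ranges of Car2 and Slc12a2, of Aqp1 and Slc4a4, and of Scnn1a and Car12 overlapped there. In the controls the order was Atp1b1 at 174.4 ± 2.54, Car2 at 121.9 ± 9.84, Slc12a2 at 45.4 ± 1.37, Slc4a4 at 22.5 ± 1.23, Aqp1 at 4.74 ± 0.520, Scnn1a at 3.04 ± 0.713, Aqp3 at 2.09 ± 2.27 and Car12 at 1.60 ± 0.231. Only the 3 lowest, Scnn1a, Aqp3 and Car12, overlapped with a neighbour in that order. Aqp1 and Slc4a4 thus stood at overlapping levels in the knockout, and in the controls every library had more Slc4a4 than Aqp1.

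Aqp1 (ENSMUSG00000004655, mm10 chromosome 6, 55336432 to 55348555, plus strand) encodes the constitutive water channel of water-permeable tubule segments, and is also made by capillary endothelium and red cells. Its normalised counts were 20.1, 22.1 and 21.6 CPM in the knockout libraries and 6.31, 7.58 and 6.41 CPM in the controls. Every knockout library was higher than every control, as for 23% of tested genes. The log2 fold change was 1.65 ± 0.14 (SE, Benjamini-Hochberg adjusted p = 2.72e-11, quasi-likelihood test in edgeR). Permuting the 6 libraries exactly, two-sided, gave p = 0.1 for this and for each of the falls, the smallest value that 3 against 3 allow. The nearest tested gene, Mindy4, lies 16210 bases away on the same strand. It fell, with a log2 fold change of -0.77 (adjusted p = 0.0014).

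The start region of Aqp1 is shown because it was the gene among the 8 that rose, beside those of Atp1b1 and Slc4a4, which fell. Each line covers 250 bases before and 50 after a RefSeq transcript start (GRCm38.p6), read 5′ to 3′ on the strand of the gene, and capitals mark AGGAAG or its reverse complement CTTCCT, letters that hold the GGAA core bound by ETS factors. Aqp1 is taken from chr6:55336049-55336348 on the plus strand, Atp1b1 from chr1:164458306-164458605 on the minus strand, and Slc4a4 from its upstream start at chr5:88887010-88887309 and its downstream start at chr5:89027716-89028015, both on the plus strand.
Aqp1: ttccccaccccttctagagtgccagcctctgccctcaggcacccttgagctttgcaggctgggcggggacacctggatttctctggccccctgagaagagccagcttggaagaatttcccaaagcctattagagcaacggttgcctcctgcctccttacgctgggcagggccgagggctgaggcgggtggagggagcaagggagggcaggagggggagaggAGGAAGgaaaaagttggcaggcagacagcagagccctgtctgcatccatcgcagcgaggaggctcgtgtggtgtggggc
Atp1b1: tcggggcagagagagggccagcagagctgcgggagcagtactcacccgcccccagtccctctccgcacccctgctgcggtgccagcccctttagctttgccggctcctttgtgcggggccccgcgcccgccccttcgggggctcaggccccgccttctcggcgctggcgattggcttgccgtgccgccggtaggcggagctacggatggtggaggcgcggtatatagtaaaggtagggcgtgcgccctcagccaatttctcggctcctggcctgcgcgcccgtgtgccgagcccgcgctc
Slc4a4 upstream start: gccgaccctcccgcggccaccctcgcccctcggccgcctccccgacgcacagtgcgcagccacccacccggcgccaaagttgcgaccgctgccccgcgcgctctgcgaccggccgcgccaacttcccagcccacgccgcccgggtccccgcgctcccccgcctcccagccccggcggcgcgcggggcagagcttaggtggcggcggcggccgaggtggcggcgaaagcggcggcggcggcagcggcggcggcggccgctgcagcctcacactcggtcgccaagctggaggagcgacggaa
Slc4a4 downstream start: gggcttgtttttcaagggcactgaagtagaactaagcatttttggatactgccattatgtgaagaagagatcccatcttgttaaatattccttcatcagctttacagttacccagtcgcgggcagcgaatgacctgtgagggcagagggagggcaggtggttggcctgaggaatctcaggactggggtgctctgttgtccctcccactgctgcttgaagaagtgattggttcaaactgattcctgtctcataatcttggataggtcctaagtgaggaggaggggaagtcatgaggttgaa

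The Aqp1 window held the 6 letters once, beginning 29 bases before the RefSeq start, and the windows of Atp1b1 and Slc4a4 did not hold them. The GENCODE start of Aqp1 given above lies 133 bases downstream of that RefSeq start, so that the whole window is upstream of it and the letters begin 162 bases before it. Of 32851 such windows in the RefSeq table, 35.4% held them on either strand, so their presence in the window of Aqp1 is a description of its letters only. Windows were found for 5 of the 8 genes, and those of Aqp3 and Car12 did not hold the letters either. The shorter GGAA core, or TTCC on the other strand, is not marked. It also stands elsewhere in the Aqp1 window and in both Slc4a4 windows.

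RNA of endothelium was measured beside the rise of Aqp1. Without Aqp1, the other 7 listed endothelial markers summed to 2.38, 3.00 and 3.70 TPM in the knockout libraries and 1.31, 0.68 and 0.72 TPM in the controls. Of the 7 only Kdr, a VEGF receptor gene, passed the count filter, and it made up most of the sum in the knockout, at 2.38 ± 0.398 TPM in the knockout and 0.42 ± 0.131 TPM in the controls (SD, n = 3 each). The log2 fold change of Kdr was 2.48 (adjusted p = 6.51e-09, edgeR). Cldn5 had no count in any library, and Pecam1 had 5 counts over the knockout libraries and 1 over the controls. Counts in the same order were 8 and 2 for Cdh5, 21 and 9 for Vwf, 3 and 1 for Tek, and 0 and 3 for Emcn. Aqp1 itself was at 13.7 to 15.6 TPM in the knockout and 4.41 to 5.34 TPM in the controls. The 4 globin genes listed for red cells had no count in any library. The part of endothelial RNA in the rise of Aqp1 was not tested.

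Aqp3 (ENSMUSG00000028435, chromosome 4, 41092722 to 41098183, minus strand) encodes the basolateral water and glycerol channel of collecting duct principal cells. It had 7, 2 and 2 counts in the knockout libraries and 0, 5 and 3 in the controls, so it lay around the floor and did not enter the test. Without the count filter it did not pass (adjusted p = 0.777, edgeR). The ratio of its summed counts, 11 in the knockout to 8 in the controls, was 1.38 after scaling (95% exact Clopper-Pearson interval 0.505 to 3.94, counting error only). The authors' TPM values ran the other way, with 0.85, 0.21 and 0.22 in the knockout and 0, 1.76 and 4.51 in the controls. Control replicate 3 was listed at 4.51 TPM from 3 counts, and knockout replicate 1 at 0.85 TPM from 7 counts. GENCODE M21 lists transcripts of 401 and 1765 bases for this gene. No difference in Aqp3 was detectable at this depth. Of 11 aquaporin genes listed, Aqp1 was the only member that passed the count filter, and Aqp2, Aqp6 and Aqp12 had no count. Aqp1 made up 86.3 ± 3.12% of the summed aquaporin TPM in the knockout and 61.3 ± 14.7% in the controls (SD, n = 3 each), a share that the Aqp3 values above enter.

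Slc4a4 (ENSMUSG00000060961, chromosome 5, 88886818 to 89239653, plus strand) encodes NBCe1, which carries bicarbonate with sodium across the basolateral membrane of the proximal tubule. Its normalised counts were 52.4, 63.4 and 56.6 CPM in the knockout libraries and 96.3, 101.2 and 103.4 CPM in the controls. Every knockout library was lower than every control, as for 23.6% of tested genes. The log2 fold change was -0.80 ± 0.07 (SE, adjusted p = 9.22e-11, edgeR). Its upstream and downstream starts give proteins that differ at the amino terminus, the downstream form being the renal one in humans, and counts per gene do not tell which start was used. The 10 listed proximal tubule markers summed to 24.1, 29.0 and 28.9 TPM in the knockout libraries and 52.1, 44.7 and 53.2 TPM in the controls. Of these, 6 passed the count filter and 3 were called, Ggt1, Hnf4a and Slc27a2, all lower. Ggt1 made up most of the sum, at 18.8 ± 3.32 TPM in the knockout and 38.3 ± 3.30 TPM in the controls. Lrp2, Cubn and Slc5a2 did not pass, with log2 fold changes of -0.21, -0.09 and 0.58 (adjusted p of 0.192, 0.747 and 0.208, edgeR). Aqp1, which is made in the proximal tubule but also in the thin descending limb and in capillary endothelium, rose. How far a change in proximal tubule RNA enters the fall of Slc4a4 was not tested.

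Of 13 tested SLC4 and SLC26 genes, whose proteins carry bicarbonate and other anions, 5 fell and 4 rose (18.3% each over all tested genes). Besides Slc4a4, the falls were those of the sulfate and anion exchanger gene Slc26a1, to 1.29 ± 0.152 CPM in the knockout against 4.95 ± 0.432 CPM in the controls, and of Slc26a7, Slc4a10 and Slc4a3. The rises were those of Slc4a11, a borate transporter homologue that conducts protons, of the sodium bicarbonate cotransporter gene Slc4a7, of the chloride bicarbonate exchanger gene Slc4a2, and of Slc26a9. Slc4a7 averaged 112.0 ± 7.34 CPM in the knockout and 73.7 ± 0.427 CPM in the controls, a rise of 1.52-fold, in the opposite direction to Slc4a4. The TPM ratio of Slc4a4 to Slc4a7 was 0.403 ± 0.0582 in the knockout and 1.04 ± 0.0337 in the controls, and the 3 knockout values lay below the 3 control values (exact permutation test, two-sided, p = 0.1). Slc4a11 rose as well, with 487.6 ± 4.70 CPM in the knockout and 347.2 ± 11.3 CPM in the controls. Slc4a4 supplied 2.81 ± 0.351% of the summed TPM of the 18 listed genes in the knockout and 5.79 ± 0.337% in the controls. The calls of Slc4a2, Slc26a9, Slc4a10 and Slc4a3 were lost in each of the 3 fits on TPM, and those of Slc26a7 and Slc4a3 with DESeq2 (adjusted p of 0.0619 and 0.0584). Slc26a7 was called in no fit on TPM, since it fell under the TPM minimum in the filtered fits and did not pass without the filter (adjusted p = 0.123). Calls were also lost without knockout replicate 1 or 2 or control replicate 1 for Slc26a7 (adjusted p of 0.106 to 0.120), without control replicate 1 for Slc4a10 (0.0720), and without knockout replicate 2 or control replicate 1 or 2 for Slc4a3 (0.0663 to 0.102). The log2 fold change of Slc26a7 was -1.63, and -3.05 without knockout replicate 3. On log2(TPM + 1), that of Slc26a1 was -1.04 in place of -1.92, and that of Slc26a9 was 0.67 in place of 1.63. Exons of Slc26a1 overlap those of Idua, and exons of Slc4a2 those of Fastk, which run the other way, and it is not stated whether reads were counted by strand.

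Car2 (ENSMUSG00000027562, chromosome 3, 14886273 to 14900770, plus strand) encodes the fast cytosolic carbonic anhydrase of proximal and intercalated cells. Its normalised counts were 22.8, 25.9 and 26.4 CPM in the knockout libraries and 93.3, 107.3 and 87.0 CPM in the controls. Every knockout library lay far below every control. The log2 fold change was -1.93 ± 0.08 (SE, adjusted p = 4.5e-18, edgeR), and 26.1% of the mean control level was counted in the knockout. Car12 (ENSMUSG00000032373, chromosome 9, 66713686 to 66766845, plus strand) encodes a carbonic anhydrase anchored on the outer face of the basolateral membrane. It had 26, 50 and 29 counts in the knockout libraries and 40, 26 and 30 in the controls, with overlapping groups. Its log2 fold change was 0.13 (95% interval -0.44 to 0.69, adjusted p = 0.766, edgeR), and changed sign without knockout replicate 2 (-0.16) or control replicate 2 (-0.02). At about 3 CPM the depth left changes within that interval undetectable.

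Of 16 carbonic anhydrase genes listed, 5 were tested, of which 3 fell, 1 rose and 1 did not pass. Among all tested genes 18.3% fell and 18.3% rose. The mitochondrial enzyme gene Car5b fell 1.65-fold, to 25.1 ± 0.278 CPM in the knockout against 41.5 ± 2.12 CPM in the controls, and the cytosolic enzyme gene Car13 fell 1.38-fold. Car13 is the tested gene nearest to Car2, at 223271 bases. Car8, a family member without catalytic activity, rose 2.66-fold, with 70 counts over the knockout libraries and 26 over the controls. Summed TPM of the 16 genes was 64.8 ± 5.96 in the knockout and 162.5 ± 10.1 in the controls (SD, n = 3 each). Car2 made up 53.9 ± 3.39% of that sum in the knockout and 75.0 ± 1.98% in the controls, and remained its largest part in each library. The TPM ratio of Car2 to Car5b was 2.67 ± 0.359 in the knockout and 5.64 ± 0.452 in the controls, without overlap (exact permutation test, two-sided, p = 0.1). On TPM the calls of Car13 (adjusted p of 0.0502 to 0.0956) and Car8 (0.0639 to 0.126) were lost, and the log2 fold change of Car8 was 0.56 on log2(TPM + 1) in place of 1.41. The call of Car8 was also lost without knockout replicate 2 (adjusted p = 0.0558), and that of Car13 without knockout replicate 3 or control replicate 1 (0.0567 to 0.0639).

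**Figure D3:**
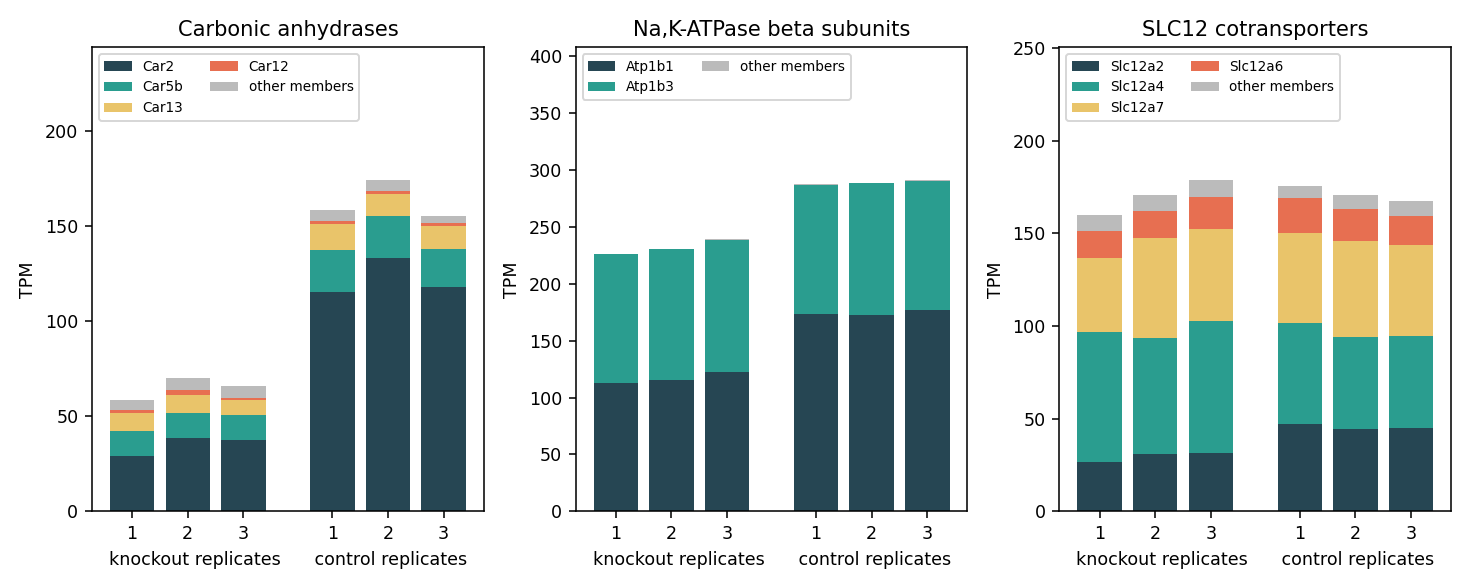
Stacked TPM (from 0) of the carbonic anhydrases, the beta subunits of the Na,K-ATPase and the SLC12 cotransporters, 1 bar per library, knockout replicates on the left of each panel and control replicates on the right. The carbonic anhydrase bars average 64.8 TPM in the knockout and 162.5 TPM in the controls with most of the difference in Car2, the part of Atp1b3 is similar in both groups while that of Atp1b1 is smaller in the knockout, and the SLC12 bars differ little in height (169.7 and 171.2 TPM) while their parts shift.

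Atp1b1 (ENSMUSG00000026576, chromosome 1, 164437109 to 164458355, minus strand) encodes the beta subunit that brings the catalytic alpha subunit of the Na,K-ATPase to the membrane. Its normalised counts were 156.8, 158.4 and 168.1 CPM in the knockout libraries and 233.5, 234.8 and 241.8 CPM in the controls. The groups did not overlap, and the log2 fold change was -0.55 ± 0.05 (SE, adjusted p = 2.51e-10, edgeR). Exons of Nme7, on the opposite strand, overlap those of Atp1b1. Nme7 had 2099 counts over the 6 libraries and fell as well (log2 fold change -0.42, adjusted p = 0.000297), so reads of either gene may have been counted for the other.

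The alternative beta subunit gene Atp1b3 stood at 119.8 ± 1.33 CPM in the knockout and 118.8 ± 0.763 CPM in the controls, with a log2 fold change of 0.01 (adjusted p = 0.894, edgeR). The TPM ratio of Atp1b1 to Atp1b3 was 1.02 ± 0.0352 in the knockout and 1.53 ± 0.0393 in the controls (SD, n = 3 each), without overlap. Atp1b1 supplied 50.4 ± 0.740% of beta subunit TPM in the knockout and 60.3 ± 0.561% in the controls, again without overlap (exact permutation tests, two-sided, p = 0.1 for both). Fxyd5, a single-pass regulator of the pump, rose 2.05-fold. Of the 14 genes listed for the pump and its FXYD regulators, 6 were tested, of which 2 rose, 2 fell and 2 did not pass. The shares over all tested genes were 18.3% higher and 18.3% lower.

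Slc12a2 (ENSMUSG00000024597, chromosome 18, 57878678 to 57946821, plus strand) encodes NKCC1, which loads cells with chloride together with sodium and potassium. Its normalised counts were 103.8, 117.0 and 116.7 CPM in the knockout libraries and 178.6, 167.4 and 171.1 CPM in the controls. All 3 knockout libraries were below the controls, and the log2 fold change was -0.61 ± 0.06 (SE, adjusted p = 4.36e-10, edgeR). Slc12a4, a potassium chloride cotransporter gene of the same family, rose 1.38-fold, with 111.7 ± 2.13 CPM in the knockout and 81.2 ± 2.86 CPM in the controls. The TPM ratio of Slc12a2 to Slc12a4 was 0.439 ± 0.0600 in the knockout and 0.887 ± 0.0219 in the controls. Summed TPM of the 9 SLC12 genes differed by less than the spread between libraries, at 169.7 ± 9.61 in the knockout and 171.2 ± 4.11 in the controls. Of 5 SLC12 genes tested, Slc12a4 rose, Slc12a2 and Slc12a7 fell, and 2 did not pass (over all tested genes, 18.3% were called each way). Slc12a7 fell by only 1.11-fold (adjusted p = 0.0463, edgeR) and lost its call with RLE size factors, DESeq2, no count filter, on TPM and without knockout replicate 1 or 3 or control replicate 1 or 2 (adjusted p of 0.0638 to 0.230 without these). The kidney cotransporter genes Slc12a1 and Slc12a3 did not pass the count filter. Slc12a1, the sodium, potassium and chloride cotransporter of the thick ascending limb, had 10, 9 and 7 counts in the knockout libraries and 2, 0 and 2 in the controls, without overlap, and was called higher when no filter was used (adjusted p = 0.0125 on counts with edgeR, 0.0270 on log2(TPM + 1)).

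Scnn1a (ENSMUSG00000030340, chromosome 6, 125320659 to 125344943, plus strand) encodes the alpha subunit of the epithelial sodium channel ENaC, through which sodium enters principal cells. It had 44, 51 and 46 counts in the knockout libraries and 50, 68 and 52 in the controls, with overlapping groups. The log2 fold change was -0.27 (95% interval -0.70 to 0.17, adjusted p = 0.352, edgeR), so a fall of the size of that of Atp1b1 lay inside the interval. Scnn1g, the gamma subunit gene, had 11 counts over the knockout libraries and 57 over the controls, with a log2 fold change of -2.33 (adjusted p = 0.00114, edgeR), and of -3.63 without knockout replicate 1. Its call was lost on TPM (adjusted p of 0.0714 to 0.0828), where the log2 fold change was -0.82 on log2(TPM + 1). Scnn1b, the beta subunit gene, had 24 and 46 counts over the knockout and control libraries and did not pass (adjusted p = 0.103, edgeR). Summed TPM of the 3 subunits was 3.34 ± 0.346 in the knockout and 5.39 ± 1.17 in the controls.

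All 14 listed genes of ENaC and its regulators were tested, of which 4 rose, 6 fell and 4 did not pass. As a background, 18.3% of all tested genes rose and 18.3% fell. Sgk1, the aldosterone-induced kinase that keeps ENaC at the membrane, rose 1.96-fold, with 28.8 ± 3.55 CPM in the knockout and 14.6 ± 3.15 CPM in the controls. Hsd11b2, which inactivates glucocorticoids in aldosterone target cells, rose 1.99-fold, and Prss8, a channel-activating protease, rose 1.51-fold. Furin, a protease that cleaves ENaC subunits, rose 1.10-fold. Besides Scnn1g, the falls were those of the mineralocorticoid receptor gene Nr3c2 (1.52-fold), the glucocorticoid receptor gene Nr3c1 (1.15-fold), the steroid-induced gene Tsc22d3 (1.46-fold), the ubiquitin ligase gene Nedd4l, which withdraws ENaC from the membrane (1.15-fold), and the protease gene Tmprss4, with under 2 CPM in both groups. The calls of Furin, Nr3c1, Nr3c2, Nedd4l and Tmprss4 were lost in each of the 3 fits on TPM, and that of Tsc22d3 in 2 of them, while those of Sgk1, Hsd11b2 and Prss8 were kept. Without single libraries, calls were lost for Furin (knockout replicate 2 or 3, control replicate 1 or 2, adjusted p of 0.127 to 0.232), for Nr3c1 (knockout replicate 1 or 3, control replicate 1 or 2, 0.0558 to 0.130) and for Tmprss4 (replicate 2 of either group, 0.0776 to 0.105). The log2 fold change of Tmprss4 was -1.80, and -0.73 on log2(TPM + 1). With DESeq2 the calls of Furin and Nr3c1 were lost (adjusted p of 0.0608 and 0.0581), and with plain library totals that of Furin. Exons of Prss8 overlap those of Kat8 on the opposite strand.

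Kinases that act on these transporters were also measured. Beside the list counts that follow, 36.6% of all tested genes passed, 18.3% higher and 18.3% lower. Of 11 genes of the WNK and SPAK network, which phosphorylates the SLC12 cotransporters, 3 rose, 1 fell and 7 did not pass. Wnk1 rose 1.46-fold, with 530.0 ± 26.2 CPM in the knockout and 362.5 ± 6.26 CPM in the controls, and Cab39 and Cul3 rose 1.19-fold and 1.14-fold. Wnk4, known for its part in the distal nephron, fell 1.92-fold, to 15.03 ± 0.893 CPM in the knockout against 28.9 ± 2.33 CPM in the controls. Of 10 tested SLC9 sodium-proton exchanger and scaffold genes, 1 rose, 1 fell and 8 did not pass, and both calls were lost on TPM. Slc9a3, the apical exchanger of the proximal tubule, had no count. Of 17 tested subunit and accessory genes of the V-type proton pump, 6 rose by between 1.13-fold and 1.36-fold and 11 did not pass. The 6 were Atp6v1h, Atp6v1e1, Atp6v0a1, Atp6v0c, Atp6v1d and Atp6v0a2. The counts of Atp6v0c were fractional in every library, which leaves its value uncertain, and the calls of Atp6v0a1, Atp6v1d and Atp6v0a2 were lost on TPM. That of Atp6v0a2 was also lost without knockout replicate 2 or control replicate 1 or 2 (adjusted p of 0.0631 to 0.0771).

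Over the 9 lists, which held 126 distinct genes, 82 were tested, of which 23 rose, 20 fell and 39 did not pass. Their median log2 fold change was 0.06, against -0.01 over all tested genes. Without the 7 genes of interest, 22 of the 75 others rose and 16 fell. Of all tested genes, 18.3% rose and 18.3% fell. On TPM, 15 genes of the lists were called higher and 8 or 9 lower, and 13 were called lower at an adjusted p under 0.01 or without control replicate 1.

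**Figure D4:**
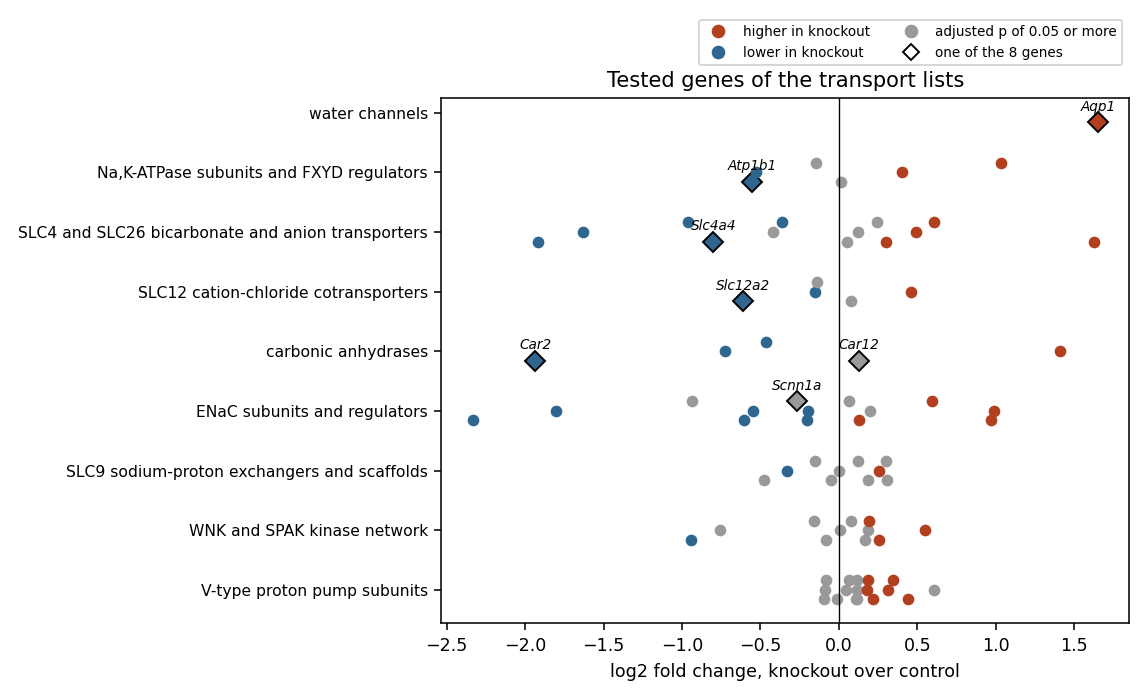
Log2 fold change, knockout over control, of the 82 tested genes of the 9 transport lists, 1 point per gene and 1 row per list, in red where higher, blue where lower and grey where the adjusted p was 0.05 or more, with diamonds for the 7 tested genes of interest. Carbonic anhydrases and ENaC genes spread widely, with Car2 at -1.93, and those of the V-type proton pump lie between -0.10 and 0.61.

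The genes whose pattern over the 6 libraries was most like that of each transport gene were found as those with the smallest root mean square difference in centred log2 CPM, among 10550 named genes with a mean of at least 5 CPM. For Aqp1 these were St8sia1 and Pgm5, at differences of 0.0904 and 0.0942. For Car2 they were the secreted metalloproteinase gene Adamts5 (0.0914) and the chloride channel gene Cftr (0.0933), which fell by 1.84 and by 1.78 on the log2 scale. Mindy4 and Oxct1 were nearest to Slc4a4, Zfp608 and Gng12 to Slc12a2, and Parp12 and Kctd12 to Atp1b1, at differences between 0.0251 and 0.0476. Asf1b and Lin54 were nearest to Scnn1a, and Adam1a and Atxn7l2 to Car12, with differences of up to 0.118.

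Other cell types were looked for by their markers, since cultures can hold them. The 9 leukocyte markers summed to between 47.1 and 61.1 TPM in the knockout and between 47.9 and 55.5 TPM in the controls, with Cd3e at 0. The 7 fibroblast markers summed to between 252.3 and 254.4 TPM in the knockout and between 193.6 and 218.5 TPM in the controls, of which Acta2 was the greater part and Lum was at 0. The 5 podocyte markers summed to between 95.8 and 116.2 TPM in the knockout and between 56.5 and 63.5 TPM in the controls. The 8 markers of the thick limb and distal tubule summed to between 9.79 and 11.7 TPM in the knockout and between 17.0 and 19.1 TPM in the controls. Most of that sum was Cldn19, at 7.74 ± 1.32 TPM in the knockout and 12.9 ± 0.820 TPM in the controls. Cldn19 was called lower, and Umod did not pass (adjusted p = 0.0675, edgeR). Below the count filter, Slc12a1 went the other way, with 26 counts over the knockout libraries and 4 over the controls. Counts in the same order were 3 and 18 for Cldn16 and 3 and 29 for Calb1. The 11 collecting duct markers other than Aqp3 summed to between 28.8 and 31.3 TPM in the knockout and between 18.5 and 19.7 TPM in the controls. Hsd11b2 made up most of it, at 26.6 ± 1.51 TPM in the knockout and 13.4 ± 0.0436 TPM in the controls. The other tested markers of this list did not rise. Scnn1g was called lower, and Scnn1b and Gata3 did not pass (log2 fold changes of -0.94 and -0.27, adjusted p of 0.103 and 0.400, edgeR). Kcnj1 and Pvalb were at 0 among the distal markers. The 6 thin limb markers other than Aqp1 summed to between 1258 and 1423 TPM in the knockout and between 1582 and 1696 TPM in the controls, mostly Cldn4, which other segments also make, with Sptssb at 0. The part of such shifts in the transport genes was not tested.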

How the data were processed

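Per the labels, RNA of the 6 libraries was sequenced in bulk. One file of the authors held an estimated count per gene and library, without scaling, and the other the TPM of the same genes, which the authors had scaled to a common sum. Salmon, featureCounts and mm10 are named, without versions or roles, per the submitters' processing notes. Strand setting, annotation release and filters are not stated. Of the nonzero counts 93.3% were whole within 1e-06, and those of the 8 genes were whole in all libraries.

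After rounding, counts passed through filterByExpr and TMM scaling, and groups were compared in edgeR 4.0.16 (R 4.3.3, quasi-likelihood, two-sided, no covariates), with Benjamini-Hochberg adjustment over 13755 genes and a threshold of 0.05. The SE of a log2 fold change is its size over the square root of the F statistic, and intervals are at 95%. Means and SDs are over 3 libraries. Floors and ratio intervals describe counting error alone. Exact permutation tests used log2(CPM + 0.5), log2 TPM ratios or percentages of summed TPM.

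The 8 genes, the lists and the tests were chosen with earlier results of these data known. Named are the 8 genes, Elf3, up to 4 called genes per list with the smallest p-values (2 where none was called, which the aquaporins could not give), and the 2 genes most like each tested member, leaving out unnamed gene models and pseudogenes. Other list and marker genes were named after their values were seen, and some genes that the rule names are not reported here. Libraries within a group differed beyond sampling noise (chi-square over its degrees of freedom, 2.00 to 3.51).

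The processing was varied by RLE size factors, by plain library totals, by DESeq2 1.42.0 and limma-voom (limma 3.58.1), by testing every gene or those with a mean of 5 CPM or more, by a replicate block, and by a threshold of 0.01. Limma was also run on log2(TPM + 1) and log2(TPM + 0.1) for genes with a mean TPM from 0.5, and on log2(TPM + 1) for all genes, scales that understate the change of low genes. Each library was left out in turn. Positions come from GENCODE M21 (mm10), in which 55227 of the 55487 identifiers were found, and start regions from the RefSeq table (GRCm38.p6).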

Additional observations from a re-analysis of the deposited data

How the results depend on the processing

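The falls of Car2, Slc4a4, Slc12a2 and Atp1b1 and the rise of Aqp1 kept their direction and their call in all 17 alternatives. Log2 fold changes ranged from -1.99 to -1.78 for Car2, from -0.87 to -0.71 for Slc4a4, from -0.64 to -0.55 for Slc12a2, from -0.58 to -0.53 for Atp1b1 and from 1.47 to 1.75 for Aqp1, with adjusted p-values of at most 0.0116. Scnn1a stayed negative and uncalled in all 17, from -0.39 to -0.14. Car12 was not called in any of its 16 and changed sign without knockout replicate 2 (-0.16) or control replicate 2 (-0.02), within -0.16 to 0.27 when leaving out libraries. Over all genes, 2516 were higher and 2512 lower. The counts were 1421 and 1291 with log2(TPM + 1), 1412 and 1304 with log2(TPM + 0.1), and 1195 and 980 with log2(TPM + 1) and no filter. Of the listed genes, 23 were higher and 20 lower. On TPM 15 were higher in each setting and 8, 9 and 8 lower, 13 were lower at an adjusted p under 0.01, and between 13 and 19 were lower, and 20 to 26 higher, when a library was left out. The cause of these shifts was not tested. The replicate numbers did not pair the libraries (correlations of deviations for equal numbers of -0.01, 0.04 and 0.03, and not every library was most like its own number), and with the replicate block 2561 genes were higher and 2585 lower, with the same 1 and 4 transport genes counted. RLE size factors and library totals moved the median of all genes by 0.005 and by -0.03. Depth limits Aqp3, Car12 and Scnn1a, with at most 68 counts per library.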
